A study of Mus musculus with 36 samples.

Results

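Interferon-stimulated genes are the genes that cells switch on when interferons reach them, and 39 of them were followed here in eosinophils. The members were named by symbol and matched to the rows of the deposited expression tables. Of the 39, 33 were rows of the table of 7 tissues, which holds 9844 genes, and 30 were rows of the table of sorted small intestine cells, which holds 8001 genes. Ifit1, Ifit3, Ifit3b, Mx1, Mx2 and Ifi44 were in neither table, and Ifit2, Gbp3 and Ifi47 were in the tissue table only. A gene absent from a table is not analysed here, since the rule by which genes entered the tables is not given in the sources used here.

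The mice were C57BL/6 animals 8 to 12 weeks old, kept at steady state, and cells of males and females were pooled. The 24 tissue libraries held total eosinophils of wildtype mice, taken from small intestine (4 libraries), colon (3), skin (3), lung (3), spleen (4), blood (4) and bone marrow (3). The other 11 held small intestine eosinophils of NMUR1-TdT mice, in which a fluorescent protein marks cells that use Nmur1, a receptor for neuromedin U, and compared reporter-positive (5 libraries) with reporter-negative cells (6). The labels name no interferon, virus or other agent given to the mice. Nothing in the labels ties a replicate to its own animal. The p-values therefore set differences against the spread among libraries, part of which may be technical.

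Type I interferons signal through the receptor pair Ifnar1 and Ifnar2 and the kinases Jak1 and Tyk2 to Stat2 and Irf9, which act in a complex that binds the interferon-stimulated response element. Interferon gamma signals through Ifngr1 and Ifngr2, and many of its target genes carry the gamma-activated site. Many cells also keep part of this programme at a low level without infection, and the Ifitm genes, Irf1 and the GTPases can be switched on by other cytokines too.

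As a check of the label, Siglecf, Ccr3 and Il5ra, defining surface markers of eosinophils, were found in every tissue, with a mean of 119 to 296 TPM for Siglecf. Others of the 21 listed eosinophil markers were at very low levels in some tissues. Epx had a mean of 1520 TPM in bone marrow and 0 in colon, and Ear1 26490 and 1.67 in the same tissues. Il1rl1 was at 147 TPM in skin and 0.47 in small intestine. TPM is a transcript abundance corrected for gene length and scaled to the same total in each library. Bone marrow stood apart: the listed neutrophil markers S100a8, at a mean of 16460 TPM, and Elane, at 7052 TPM, were abundant there, against at most 825 and 23.0 TPM elsewhere. Of 15 neutrophil markers 12 were in the tissue table, and their sum without Retnlg was 49640 to 57080 TPM in bone marrow, 648 to 8628 in spleen and at most 270 in the other 5 tissues. Retnlg, the most abundant of the 12, had another order. Its means were 17780 TPM in bone marrow, 61060 in blood, 56430 in spleen and 70440 in lung. They were 7364 TPM in skin, 12530 in colon and 6941 in small intestine. With Retnlg the sums were 67470 to 76530 TPM in bone marrow and 65910 to 75130 in lung. The 9 erythroid and platelet genes listed summed to 39190 to 118900 TPM in blood, 85.6 to 39590 in spleen and 7830 to 18500 in bone marrow. Their sums were 2287 to 29160 TPM in lung, 95.2 to 17810 in small intestine and at most 1534 in skin and 373 in colon. TPM keeps no sequencing depth, so the depth of each library is unknown. Summed over the genes kept, libraries held 796048 to 890768 TPM (tissues) or 799585 to 863816 TPM (sort). The reporter gene Nmur1 was between 25.9 and 53.1 TPM in the positive libraries and between 0 and 15.6 in the negative ones. In bulk samples, fewer cells of a type and less RNA per cell cannot be told apart.

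The response element is written into many of these genes just before their start, and the stretches below show it for 5 members whose levels are described here, and a gamma-activated site for Irf1. They were read from RefSeq promoters of build GRCm38.p6, each 250 bases before to 50 bases after a gene's start, in which 31 of the 39 members had an entry. The motif searched for the interferon-stimulated response element was the word GAAA followed, after 2 bases of any kind, by GAAA again, and that for the gamma-activated site was TTCNNNGAA, both on either strand and free to overlap each other. Capitals mark the matches, which can overlap, and each stretch reads 5′ to 3′ on the strand of its gene.
Isg15, chr4:156200851-156200920, minus strand, response element: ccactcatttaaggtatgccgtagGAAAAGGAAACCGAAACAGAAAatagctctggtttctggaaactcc
Ifitm2, chr7:140955974-140956031, minus strand, response element: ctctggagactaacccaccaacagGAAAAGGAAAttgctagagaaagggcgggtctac
Bst2, chr8:71537563-71537632, minus strand, both motifs: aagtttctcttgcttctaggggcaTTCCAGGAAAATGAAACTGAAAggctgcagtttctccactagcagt
Stat2, chr10:128270252-128270309, plus strand, response element: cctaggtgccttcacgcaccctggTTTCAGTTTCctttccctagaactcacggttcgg
Igtp, chr11:58199487-58199555, plus strand, both motifs: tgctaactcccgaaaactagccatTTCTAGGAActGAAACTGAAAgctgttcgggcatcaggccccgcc
Irf1, chr11:53769900-53769956, plus strand, gamma-activated site: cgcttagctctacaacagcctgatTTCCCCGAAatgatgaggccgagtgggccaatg

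Isg15 held 3 overlapping copies of the response element in a row, and Ifitm2 held 1. Over the whole 300-base window, 19 of the 31 members with an entry (61.3%) held a response element, against 3.99% of the 27025 symbols in the promoter table. The gamma-activated site stood in 9 of the 31 (29%), against 9.55% of all symbols. Ifitm1 showed no match to either motif in its window, and both response element matches of Ifitm3 lay after its start. Members with the element had their highest mean in different tissues: Ifitm2 in small intestine, Isg15 in lung, Igtp in spleen. A match is a stretch of letters and not a measured binding site.

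Several members sit side by side. Ifitm2, Ifitm1, Ifitm3 and Irf7 lie between 140954837 and 141266481 on chromosome 7, Oas2, Oas3 and Oas1a between 120730333 and 120907521 on chromosome 5, and Gbp7, Gbp3 and Gbp2 between 142530342 and 142638008 on chromosome 3 (GENCODE M21, GRCm38). Neighbours need not share a pattern, as Irf7 and Ifitm1 show below. Some also share sequence: 48.5% of the 50-base words of the Ifitm2 transcript occur in another gene model, mostly predicted genes, and 57.6% of those of Oas1a occur in Oas1g or Oas1b. Reads of these genes can be split among copies by the counting, so the levels of Ifitm2 and Oas1a are less certain than those of Stat2, Irf1, Bst2 or Oasl2, of which no such word occurs elsewhere.

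The levels differed between tissues for most members. In the test across the 7 tissues (limma's moderated F-test on log2(TPM + 1), adjusted p below 0.05 over all 9806 genes tested), 28 of the 33 were called, against 81.1% of all genes, so this share is close to the background. Irf7, Ifit2, Oas2, Oas3 and Gbp7 were not. Each tissue was then set against the mean of the other 6. Changes below are log2 differences relative to the median gene of the same comparison, with the standard error (SE), while the call, at an adjusted p below 0.05, tests the difference before that shift. The median gene stood at −0.57 in lung, between −0.04 and 0.16 in the other 6 tissues, and at 0.22 in the sort. The heatmap of all members shows that no tissue had the whole group high or low.

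**Figure D1:**
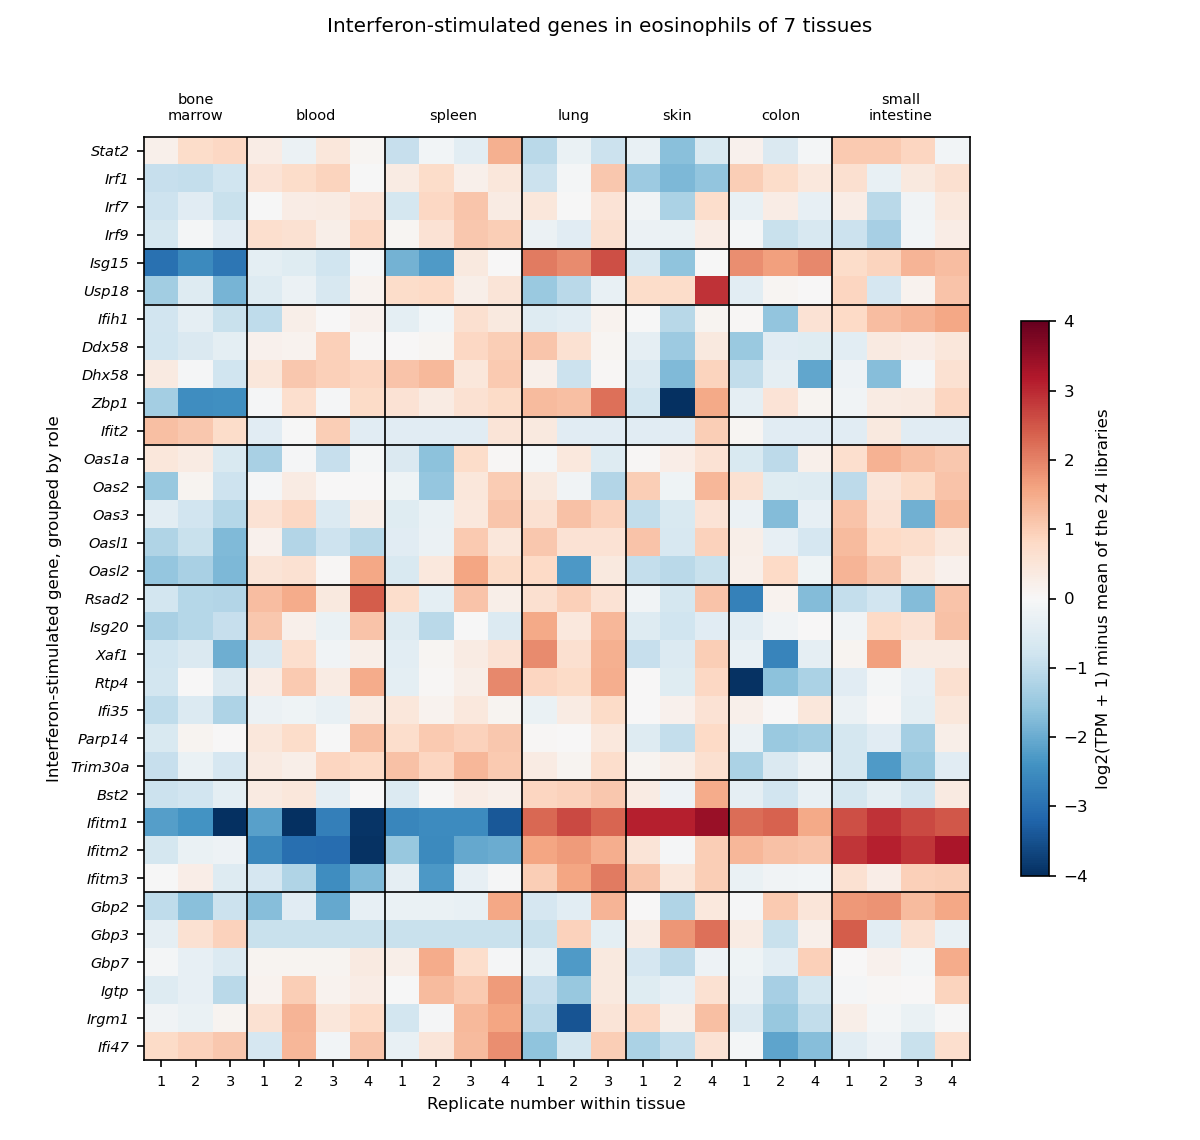
Colour gives log2(TPM + 1) of each of 33 interferon-stimulated genes (rows, grouped by role) in each of 24 libraries (columns, by tissue and replicate number) minus the gene's mean over the 24 libraries. Ifitm1 and Ifitm2 are high in lung, skin, colon and small intestine and low in blood and spleen, while most other rows show smaller differences with no single order of tissues.

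The Ifitm genes code for membrane proteins that hinder the entry of enveloped viruses, and they carried the largest tissue differences. Ifitm1 was at 18.5, 16.0 and 3.85 TPM in bone marrow, 19.1, 2.05, 12.6 and 4.91 in blood and 13.8, 14.7, 14.7 and 7.61 in spleen. It was at 442, 567 and 452 TPM in lung, 783, 770 and 983 in skin, 421, 458 and 258 in colon and 535, 668, 567.6 and 503 in small intestine. Each library of the latter 4 tissues was therefore far above each library of the former 3. All 12 pairwise differences between the 4 tissues and the 3 were called, the smallest of them for spleen minus colon at −4.82 (SE 0.45, adjusted p = 4.48e-09, limma) and the largest for blood minus skin at −6.48 (SE 0.45, adjusted p = 1.34e-11). None of the 9 pairs within the 4 or within the 3 was called, with 0.0886 for skin against colon as the lowest adjusted p.

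Ifitm2 had its own order. Its values were 2510, 2935, 2474 and 3325 TPM in small intestine, 1029, 1108 and 933 in lung, 869, 774 and 733 in colon and 491, 331 and 680 in skin. They were 210, 282 and 298 TPM in bone marrow, 120, 58.3, 81.6 and 86.2 in spleen and 56.3, 41.4, 40.3 and 21.4 in blood. Small intestine stood above every other library, and blood below every other. Against the mean of the other 6 tissues, the change was 3.29 (SE 0.18, adjusted p = 4.4e-14) for small intestine and −3.75 (SE 0.18, adjusted p = 1.71e-14) for blood. Of the 21 pairs of tissues 19 were called, all but lung against colon (adjusted p = 0.29) and skin against colon (adjusted p = 0.0657).

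Ifitm3 moved over a narrower range, from a mean of 35.8 ± 18.3 TPM (SD, n = 4) in blood to 291 ± 106 (SD, n = 3) in lung. Its 3 lung libraries held 189, 286 and 400 TPM and its 4 blood libraries 58.7, 41.1, 16.2 and 27.3, with no overlap between these tissues. Ifitm3 was higher in lung (change 2.28, SE 0.33, adjusted p = 0.000155) and lower in blood (change −1.83, SE 0.29, adjusted p = 1.88e-05). The lower call in spleen (change −1.09, adjusted p = 0.0132) ended without spleen replicate 2, which was at 18.3 TPM, at an adjusted p of 0.193. The calls as higher in skin (adjusted p = 0.0361) and small intestine (adjusted p = 0.0481) both ended under other scalings, at adjusted p from 0.115 to 0.2. The call in skin also ended without skin replicate 1 (0.166) or 4 (0.121), and that in small intestine ended under 19 of the settings tried. Together the 3 genes made up 79.1% to 83.3% of the summed TPM of all 33 members in small intestine, against 5.16% to 14.4% in blood.

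**Figure D2:**
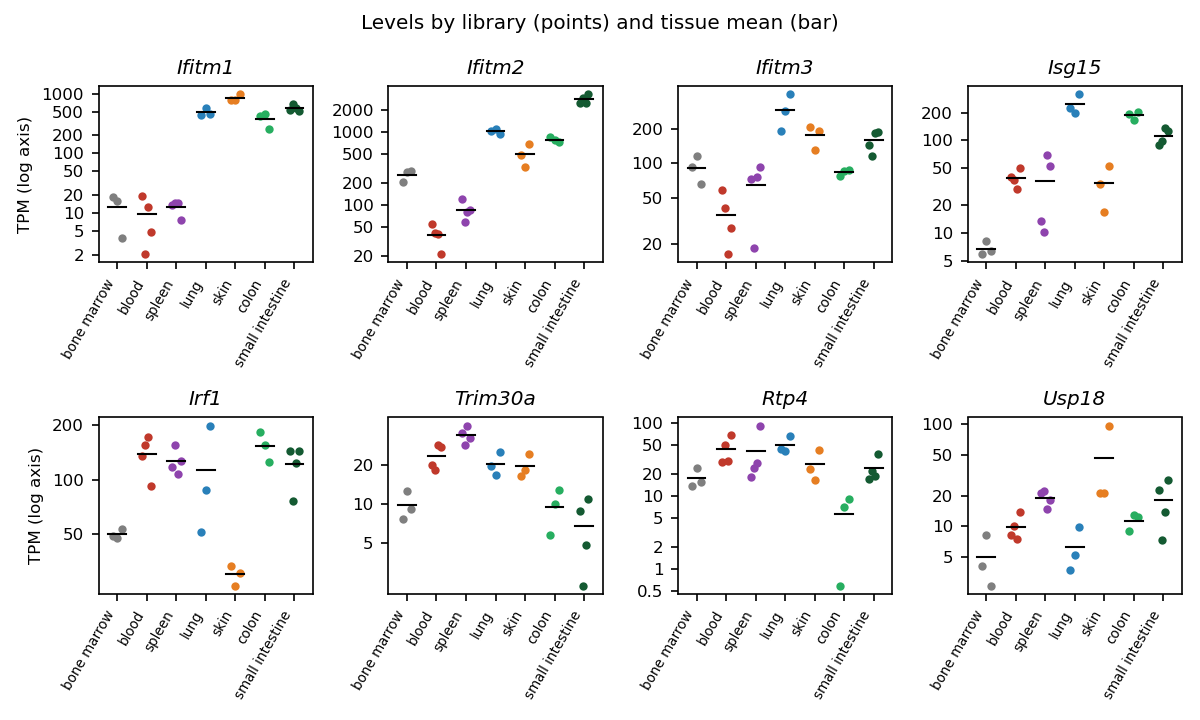
TPM on a log axis for 8 interferon-stimulated genes by tissue, with 1 point per library and a bar at the tissue mean. Ifitm1 is at or below 19.1 TPM in bone marrow, blood and spleen and at or above 258 TPM elsewhere, Isg15 peaks in lung and colon, and Irf1 is lowest in skin, Rtp4 in colon and Trim30a in small intestine.

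A list of genes that respond to tissue dissociation showed, in its summed TPM, the split of tissues seen for Ifitm1. Its 31 measured genes summed to 2117 to 2295 TPM in bone marrow, 5420 to 9247 in blood and 3125 to 5535 in spleen. The sums were 11120 to 12510 TPM in lung, 16450 to 23590 in skin, 27150 to 32130 in colon and 11490 to 18750 in small intestine. The order within the split differed: these sums were highest in colon, but Ifitm1 was highest in skin, Ifitm2 in small intestine and Ifitm3 in lung. Single genes of the list crossed the split: Klf2 was at a mean of 564 TPM in blood and 21.9 in lung. In lung, 17 of the 31 were called higher and 10 lower (54.8% and 32.3%, against 9.62% and 42.4% of all genes). The part of the dissociation response in the levels of the interferon-stimulated genes was not tested.

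The ISG15 system consists of Isg15, a ubiquitin-like protein that is attached to other proteins, and Usp18, the protease that removes it and that also damps interferon signalling. Isg15 was at 5.85, 8.12 and 6.29 TPM in bone marrow, at 225, 198 and 317 in lung and at 193, 168 and 202 in colon. It was at 89.1, 97.8, 137 and 125 TPM in small intestine, at 40, 37.1, 29.8 and 50.6 in blood and at 33.4, 16.6 and 52.5 in skin. Spleen was split, with 13.4 and 10.1 TPM in replicates 1 and 2 and 69.7 and 53.3 in replicates 3 and 4. Every bone marrow library lay below every other library. Isg15 was lower in bone marrow (change −3.36, SE 0.36, adjusted p = 3.35e-08) and higher in lung (change 3.09, SE 0.36, adjusted p = 3.61e-06) and colon (change 2.003, SE 0.36, adjusted p = 7.98e-05). Tissues that the test did not separate were lung and colon (adjusted p = 0.568), colon and small intestine (0.323), skin and spleen (0.778), and either of these and blood (0.617 and 0.815). The call as higher in small intestine (change 1.10, adjusted p = 0.00333) ended without the bone marrow libraries (adjusted p = 0.106). The lower call in spleen (adjusted p = 0.00924) ended without spleen replicate 1 (adjusted p = 0.0835) or 2 (0.12).

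Usp18 did not follow Isg15. It was at 21.2, 21.2 and 96.2 TPM in skin and at 3.75, 5.26 and 9.88 in lung, the tissue where Isg15 was highest. Skin was higher than the mean of the other tissues (change 1.58, SE 0.38, adjusted p = 0.000843), also with any single library left out. The lower call in lung (adjusted p = 0.0214) ended under median-ratio scaling (adjusted p = 0.172), under quantile normalization (0.553), and without lung replicate 1 (0.15) or 2 (0.083).

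Among the transcription factors, Irf1, which switches on genes of interferon gamma and of other inflammatory signals, differed most. It was at 33.4, 25.8 and 30.3 TPM in skin and 48.7, 47.5 and 53.3 in bone marrow, against 183, 155 and 125 in colon and 136, 155, 173 and 92.7 in blood. All 3 skin libraries lay below every other library (change −1.97, SE 0.24, adjusted p = 2.02e-06), and bone marrow was lower too (change −1.04, SE 0.24, adjusted p = 0.00239). The higher call in colon (adjusted p = 0.00874) ended without colon replicate 1 (adjusted p = 0.0894), and those in blood and spleen ended without the bone marrow libraries (adjusted p = 0.068 and 0.168). The call in blood also ended without blood replicate 2 (0.0604) or 3 (0.0809), and that in spleen ended under 22 of the settings tried. Irf9, the DNA-binding partner of Stat2, was at 28.6, 41.3, 58.2 and 54.4 TPM in spleen and 43.5, 42.2, 32.4 and 49.0 in blood, and at 25.6, 14.3 and 17.1 in colon. It was higher in spleen (change 0.71, SE 0.24, adjusted p = 0.0115) and blood (change 0.77, SE 0.24, adjusted p = 0.0244). These calls ended without spleen replicate 3 (0.0666) or 4 (0.0563) and without blood replicate 1 (0.0696), 2 (0.0629) or 4 (0.0904). Irf7, the amplifier of type I interferon production, ranged from a mean of 14.6 ± 2.75 TPM (SD, n = 3) in bone marrow to 35.9 ± 16.9 (SD, n = 4) in spleen, and Stat2 from 3.34 ± 1.86 (SD, n = 3) in skin to 11.6 ± 3.93 (SD, n = 4) in small intestine. The call of Stat2 as higher in small intestine (adjusted p = 0.035) ended under both other scalings (adjusted p = 0.0611 and 0.0785) and without small intestine replicate 1, 2 or 3 (adjusted p from 0.0921 to 0.12).

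Sensors of viral RNA or DNA were present at low to moderate levels. Ifih1, the cytosolic sensor MDA5 of long RNA, was at 11.3, 15.7, 17.4 and 19.97 TPM in small intestine and between 1.39 and 10.1 in the 20 other libraries, so that small intestine did not overlap with the rest (change 1.39, SE 0.33, adjusted p = 0.00055). Zbp1, a sensor of left-handed nucleic acids that can start cell death, was at 7.68, 2.97 and 3.10 TPM in bone marrow and 52.3, 50.2 and 101 in lung. It was lower in bone marrow (change −2.45, SE 0.59, adjusted p = 0.00195). Its higher call in lung (change 2.45, adjusted p = 0.0103) ended without lung replicate 3 (adjusted p = 0.0809) and with a pseudocount of 0.1 TPM (adjusted p = 0.0564). Skin was uneven for Zbp1, with 12.4, 0 and 63.0 TPM. Ddx58, the sensor RIG-I of RNA ends, had its highest mean in lung and its lowest in colon, and both calls ended when single libraries were left out (lung replicate 1 or 2, adjusted p = 0.269 and 0.112, and colon replicate 1 or 4, 0.328 and 0.0509). Dhx58, the helicase LGP2 that tunes both RNA sensors, was at 19.0, 21.4, 11.5 and 17.7 TPM in spleen and 3.59, 6.08 and 1.14 in colon. It was higher in spleen (change 1.12, SE 0.39, adjusted p = 0.0177), though not without spleen replicate 1 (0.0517) or 2 (0.067), while the calls as higher in blood (0.0395) and lower in colon (0.0436) ended under 8 and 15 of the settings tried.

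The OAS enzymes make the signal that activates the RNA-cleaving RNase L. Oas1a was higher in small intestine, at 14.6, 24.6, 21.6 and 19.5 TPM against means of 5.98 to 11.2 in the other tissues (change 1.16, SE 0.33, adjusted p = 0.00318). Spleen replicate 3, at 15.2 TPM, lay within the range of small intestine. Oasl1 and Oasl2, which are OAS-like proteins, were lower in bone marrow, at 1.35 to 3.35 TPM (change −1.57, SE 0.36, adjusted p = 0.00162) and 4.45 to 6.69 TPM (change −1.78, SE 0.44, adjusted p = 0.00261). Oas2 and Oas3 stayed at or below a mean of 6.70 TPM in every tissue. Ifit2, the 1 member of the IFIT family of RNA-binding antiviral proteins in the tables, was listed at 0 in 14 of 24 libraries and at 2.14, 1.87 and 1.29 TPM in bone marrow. Its call there as higher (adjusted p = 0.00556) ended under quantile normalization (adjusted p = 0.39).

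The other antiviral effectors had no common order. Rtp4, a chaperone of membrane receptors that is strongly interferon-induced, was at 0.59, 7.02 and 9.24 TPM in colon, below every other library, of which the lowest held 13.9 (change −2.70, SE 0.42, adjusted p = 4.1e-05). Rsad2, which codes for viperin and blocks viral RNA synthesis, was at 32.03, 38.7, 17.5 and 75.1 TPM in blood and higher there (change 1.73, SE 0.44, adjusted p = 0.00431), with ranges that overlapped those of other tissues. Its lower call in colon, at 1.16, 14.5 and 3.21 TPM, ended without colon replicate 1 (adjusted p = 0.275) or 4 (0.105). Trim30a, a damper of Toll-like receptor signalling, was at 35.2, 28.5, 40.2 and 32.3 TPM in spleen and 8.87, 2.34, 4.86 and 10.8 in small intestine. It was higher in spleen (change 1.19, SE 0.25, adjusted p = 0.000302) and lower in small intestine (change −1.52, SE 0.25, adjusted p = 6.36e-05), directions opposite to those of Ifitm2. Parp14, an ADP-ribosyltransferase, was also higher in spleen (change 1.02, SE 0.29, adjusted p = 0.00408). Ifi35, an interferon-induced leucine zipper protein, was at 28.4, 39.6 and 24.1 TPM in bone marrow, below every other library (change −1.17, SE 0.20, adjusted p = 7.41e-05). Isg20, an exonuclease that degrades viral RNA, and Xaf1, which promotes cell death, were higher in lung (changes 1.88 and 2.16, adjusted p = 0.000272 and 0.00439). Bst2, or tetherin, which holds budding viruses at the cell surface, was at 144, 149 and 168 TPM in lung and higher there (change 1.67, SE 0.24, adjusted p = 0.000659). Skin replicate 4, at 219 TPM, was the 1 library above those of lung.

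The interferon-inducible GTPases attack the vacuoles of intracellular microbes. Gbp2, a guanylate-binding protein, was at 22.1, 22.9, 15.8 and 19.4 TPM in small intestine and 2.40, 1.16 and 2.79 in bone marrow. It was higher in small intestine (change 1.78, SE 0.39, adjusted p = 0.000329), although spleen replicate 4 at 19.1 TPM and lung replicate 3 at 16.7 lay within its range. Igtp, of the immunity-related GTPase family, was at 16.9, 42.8, 36.3 and 57.9 TPM in spleen and higher there (change 1.13, SE 0.31, adjusted p = 0.00303). Irgm1, which keeps the other GTPases of its family off the cell's own membranes, was at 7.50, 0.64 and 24.7 TPM in lung. Its lower call there (adjusted p = 0.0114) rested on lung replicate 2: without it the change relative to the median gene was 0.12 and the adjusted p 0.419. Gbp3 was listed at 0 in all 8 libraries of blood and spleen and reached 8.98 TPM in 1 library of small intestine. Ifi47, another GTPase of the Irgm1 family, was at 12.0, 2.16 and 3.19 TPM in colon, and its lower call there (adjusted p = 0.0398) ended without colon replicate 2 (0.264) or 4 (0.177). Gbp7 kept tissue means between 4.20 and 11.9 TPM and was called in no comparison with the other 6 tissues.

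By tissue, bone marrow had 1 member higher and 14 lower of the 33, against 22% and 19.2% of all genes. It was the tissue with the lowest mean for 15 members (45.5%, against 17.1% of all genes). The 8 called under every setting tried were Irf1, Isg15, Zbp1, Oasl1, Oasl2, Isg20, Ifi35 and Ifitm1, all lower. The 1 higher was Ifit2, and 2 were higher without spleen replicate 4, lung replicate 3, skin replicate 4 or colon replicate 1. The sum of the neutrophil markers without Retnlg was highest in the same 3 libraries, and the part of these markers in the lower levels was not tested. Lung had 11 higher and 2 lower, against 9.62% and 42.4% of all genes, and was the tissue with the highest mean for 10 members (30.3%, against 5.56% of all genes). It had the lowest mean for 0 members, against 40.7% of all genes. Its libraries also held the fewest genes at 1 TPM or more, 7770 to 7876, against 8539 to 9325 in the other tissue libraries. The part of this in the lung counts was not tested. Median-ratio scaling gave 17 higher and 0 lower in lung, against 18.9% and 25.9% of all genes under that scaling, and quantile normalization 16 and 0, against 17.7% and 17.4%. Without lung replicate 1, 2 or 3 the count of lower members was 1, 0 or 4. The 7 called in lung under every setting were Isg15, Isg20, Xaf1, Bst2 and the 3 Ifitm genes.

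Small intestine had 11 members higher and 1 lower, against 24.7% and 16.1% of all genes. The split became 8 and 4 under median-ratio scaling, where that of all genes was 20.5% and 19%, and 7 and 4 under quantile normalization, where it was 18.5% and 21.8%. It was 6 and 2 without the bone marrow libraries. Ifih1, Oas1a, Ifitm1, Ifitm2, Gbp2 and, as lower, Trim30a were called under every setting. Without small intestine replicate 4 the count was 5 lower, and without replicate 1 it was 7 higher. Without skin replicate 2 it was 2 lower.

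Blood had 7 higher and 6 lower, against 14.2% and 18.3%, and spleen 6 higher and 5 lower, against 17.4% and 12.5%. The part of the erythroid and platelet genes given above in these calls was not tested. Rsad2 and the 3 Ifitm genes were the calls in blood that held under every setting, and Parp14, Trim30a, Igtp, Ifitm1 and Ifitm2 those in spleen. In blood the count of higher members went to 10, with 4 lower, under quantile normalization, which also moved all genes to 18.8% higher and 15% lower. It went to 2 higher without blood replicate 1 or 4, to 3 without replicate 2, and to 4 without replicate 3, which also left 3 lower. In spleen the count of lower members went to 3 without spleen replicate 1 and to 2 without replicate 2.

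Skin had 4 higher and 2 lower, against 22.2% and 12.5% of all genes, with Irf1, Usp18 and Ifitm1 called under every setting. Median-ratio scaling gave 3 higher and 6 lower in skin and quantile normalization 3 and 5, and the balance of all genes turned as well, to 15% higher and 16.6% lower and to 15.4% and 15.7%. Without skin replicate 4 it was 2 and 4, without skin replicate 2 the count was 1 lower, and without spleen replicate 1 it was 4 lower. The call of Stat2 in skin was lost under 17 settings, among them the loss of skin replicate 2 or 4 or of any 1 of 12 libraries of other tissues. In 8 of those 12 cases 1 member was left lower: bone marrow 2 or 3, blood 1 or 4, colon 1 or 4, or small intestine 2 or 3. Colon had 4 higher and 7 lower, against 14.4% and 6.36%, with Isg15, Ifitm1, Ifitm2 and Rtp4 called under every setting. Colon had the lowest mean for 9 members (27.3%, against 6% of all genes). Without colon replicate 1 or 2, 4 members were lower in colon, and without replicate 4, 3 were.

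**Figure D3:**
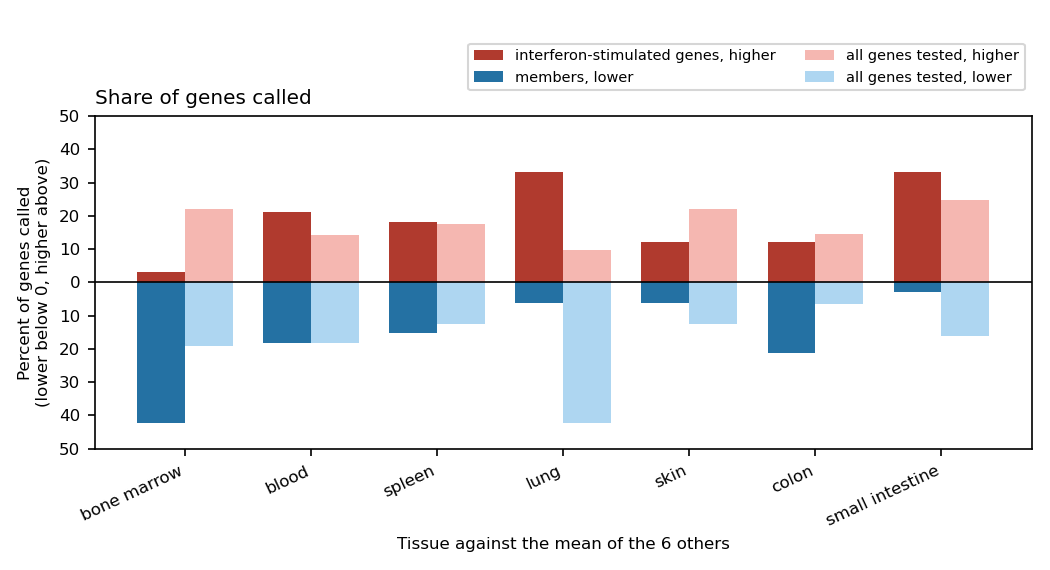
Bars give the percent of the 33 interferon-stimulated genes (dark) and of all 9806 genes tested (light) called higher (up, red) or lower (down, blue) in each tissue against the mean of the other 6. In bone marrow 42.4% of the interferon-stimulated genes are lower against 19.2% of all genes, and in lung 33.3% are higher against 9.62%.

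Libraries of the same tissue differed in the members as a group. Skin replicate 4 was the highest of the 3 skin libraries in 29 of 33 members, against 38.2% of all genes, and skin replicate 2 was the lowest in 25, against 34.1%. Small intestine replicate 4 was the highest of 4 in 21 of 33, against 26.2%, and lung replicate 3 the highest of 3 in 18, against 32.7%. In spleen, replicates 3 and 4 were the highest in 12 and 14 of the 32 members that could be ranked, against 28% and 22.7% of all genes. Usp18 was at 96.2 TPM in skin replicate 4 against 21.2 in both others, and Zbp1 at 63.0 against 12.4 and 0. Ifitm1 spanned 770 to 983 TPM over the same 3 libraries.

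**Figure D4:**
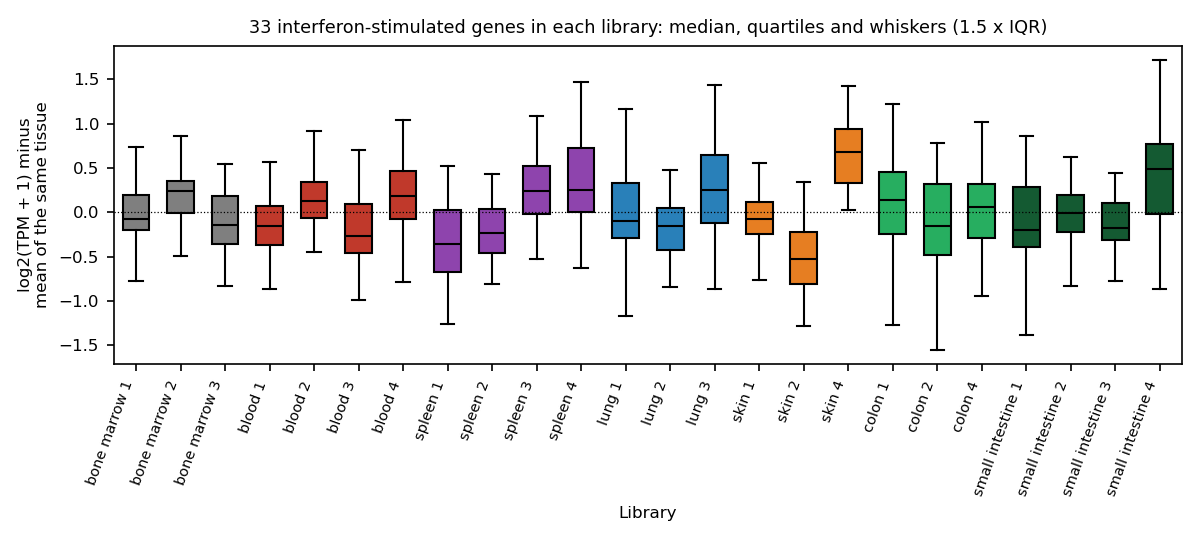
Boxes give, for each of 24 libraries, the median and quartiles over 33 interferon-stimulated genes of log2(TPM + 1) minus the mean of the same tissue, with whiskers to 1.5 times the interquartile range. Skin replicate 4 has the highest median, at 0.68, and skin replicate 2 the lowest, at −0.53.

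Upstream of the members, none of the 12 listed interferon genes was in either table. Of 10 receptors and signal carriers 9 were measured, and 7 of these were lower and 0 higher in bone marrow, against the 19.2% and 22% of all genes given above. Ifnar1, a chain of the type I interferon receptor, had a mean of 9.80 TPM in bone marrow against 45.8 over the other tissues (change −1.98, SE 0.25, adjusted p = 6.64e-07), and was higher in lung, at 76.3 TPM (change 2.02, SE 0.25, adjusted p = 4.16e-05), and in skin, at 76.8 TPM (change 1.27, SE 0.25, adjusted p = 7.08e-05), and colon, at 50.2 TPM (change 0.64, SE 0.25, adjusted p = 0.0383). Il10rb, shared by the receptors of interferon lambda and interleukin 10, was lower in bone marrow (26.7 TPM), blood (33.5) and spleen (36.6) and higher in skin (231), colon (180) and small intestine (289). Ifngr2, a chain of the interferon gamma receptor, was highest in skin, at 232 TPM against 54.8 (change 2.04, SE 0.19, adjusted p = 2.4e-09), where Irf1 was lowest.

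Of 25 genes of nucleic acid sensing and interferon induction 19 were measured, with 5 higher and 0 lower in skin (26.3% and 0%, against 22.2% and 12.5% of all genes), 3 and 5 in bone marrow (15.8% and 26.3%, against 22% and 19.2%), and 3 and 8 in lung (15.8% and 42.1%, against 9.62% and 42.4%). The shares higher in skin and lower in lung are close to those of all genes. Of 16 negative regulators 15 were measured, with 7 higher and 1 lower in colon (46.7% and 6.67%, against 14.4% and 6.36% of all genes) and 0 higher and 10 lower in bone marrow (0% and 66.7%, against 22% and 19.2%). Tnfaip3, which ends NF-kappaB signalling and is itself part of its response, was at 897 TPM in colon and 8.79 in bone marrow. Of 98 further interferon-stimulated genes 67 were measured, with 15 higher and 17 lower in lung (22.4% and 25.4%, against 9.62% and 42.4% of all genes), 20 and 9 in small intestine (29.9% and 13.4%, against 24.7% and 16.1%), and 7 and 13 in bone marrow (10.4% and 19.4%, against 22% and 19.2%). The shares in small intestine and the share lower in bone marrow are near those of all genes. In colon 6 were higher and 15 lower (8.96% and 22.4%, against 14.4% and 6.36%). Skin had 12 and 18 (17.9% and 26.9%, against 22.2% and 12.5%). Blood had 17 and 8 (25.4% and 11.9%, against 14.2% and 18.3%) and spleen 17 and 6 (25.4% and 8.96%, against 17.4% and 12.5%). Cxcl10, a chemokine that draws T cells and is induced by interferon gamma, was at 0.277 TPM in bone marrow, 0.698 in blood and 0.13 in spleen, against 133 in lung, 90.5 in skin, 152 in colon and 121 in small intestine. That is the split of tissues seen for Ifitm1. Ifitm6, another gene of the Ifitm family, was instead highest in bone marrow, at 633 TPM against 45.9 (change 4.86, SE 0.34, adjusted p = 6.76e-12), and Gbp4 and Gbp8 were higher in small intestine, at 5.99 and 11.5 TPM against 0.267 and 0.425.

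Within the small intestine, the shares of members called between Nmur1-positive and Nmur1-negative eosinophils were near those of all genes. Of the 30 measured, 2 were higher and 1 lower in positive cells (6.67% and 3.33%, against 9.18% and 5.25% of all 7982 genes tested). The median change over the members was −0.01. Median-ratio scaling and quantile normalization each gave 1 higher and 2 lower, against 4.54% and 7.42% or 5.36% and 6.63% of all genes. The labels do not tie same-numbered libraries of this sort to a shared source. Their deviations from the group means correlated at 0.164 to 0.225 in 4 pairs. In 26 differently numbered pairs the range was −0.175 to 0.194, with 3 over 0.1. The fit with the number as a block is therefore given beside each value as an alternative, and its changes rest on the 4 same-numbered pairs. This fit called 3 higher and 3 lower.

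Stat2, the signal carrier of type I interferons, was at 14.3, 8.80, 14.6, 9.60 and 24.3 TPM in positive libraries and at a lowest, median and highest of 3.19, 5.92 and 8.12 in negative ones. The groups did not overlap. Stat2 was higher in positive cells (change 0.89, SE 0.31, adjusted p = 0.0235, limma), but not under the block (adjusted p = 0.0638), median-ratio scaling (0.0558) or quantile normalization (0.0691), nor without positive replicate 4 (0.0526) or 8 (0.0731).

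Oasl2 was at 48.3, 66.1, 34.4, 33.1 and 71.1 TPM in positive libraries and at 8.32, 20.2 and 35.9 (lowest, median, highest) in negative ones, with overlap at 33.1 to 35.9. It was higher in positive cells (change 1.02, SE 0.34, adjusted p = 0.0193), also under the block (change 0.85, SE 0.27, adjusted p = 0.0167) and in 4 of 4 pairs. Leaving out positive replicate 3 gave an adjusted p of 0.0506 and leaving out positive replicate 8 one of 0.0594, and without replicate 8 neither Oasl2 nor Stat2 was called.

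Bst2 was lower in positive cells under every setting tried. Its values were 47.9, 57.9, 39.2, 41.3 and 44.5 TPM in positive libraries and 57.8, 71.6 and 102 (lowest, median, highest) in negative ones, so that the groups met only at 57.8 to 57.9. The change was −0.93 (SE 0.19, adjusted p = 0.0158) without and −1.10 (SE 0.18, adjusted p = 0.00717) with the block, and all 4 pairs had the lower value in positive cells.

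The block added calls for 4 members. Isg15 was at 184, 85.6, 66.1, 89.6 and 136 TPM in positive libraries and at 86.2, 185 and 253 (lowest, median, highest) in negative ones, and was lower under the block (change −1.08, SE 0.22, adjusted p = 0.0189) but not without it (0.087). The lower value was in the positive library of 3 of 4 pairs. Gbp2 was lower under the block (change −1.65, SE 0.41, adjusted p = 0.0338; without it 0.0883), with 13.5, 9.33, 12.8, 0.89 and 17.8 TPM in positive libraries against 15.4, 19.2 and 28.7 (lowest, median, highest) in negative ones. Ddx58 and Ifitm2 were higher under the block (changes 0.59 and 0.21, adjusted p = 0.0395 and 0.0035) and higher in the positive library of all 4 pairs. Ifitm1 was at 530 to 1546 TPM in positive and 356 to 1168 in negative libraries, and was called under neither fit (adjusted p = 0.673 and 0.212). Without negative replicate 5 or positive replicate 1, and no block, 2 members were lower in place of 1. Positive replicate 3 held the most Ifitm1 and Ifitm2 (5456 TPM) of all sorted libraries, and without it or positive replicate 4 the count was 1 higher.

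**Figure D5:**
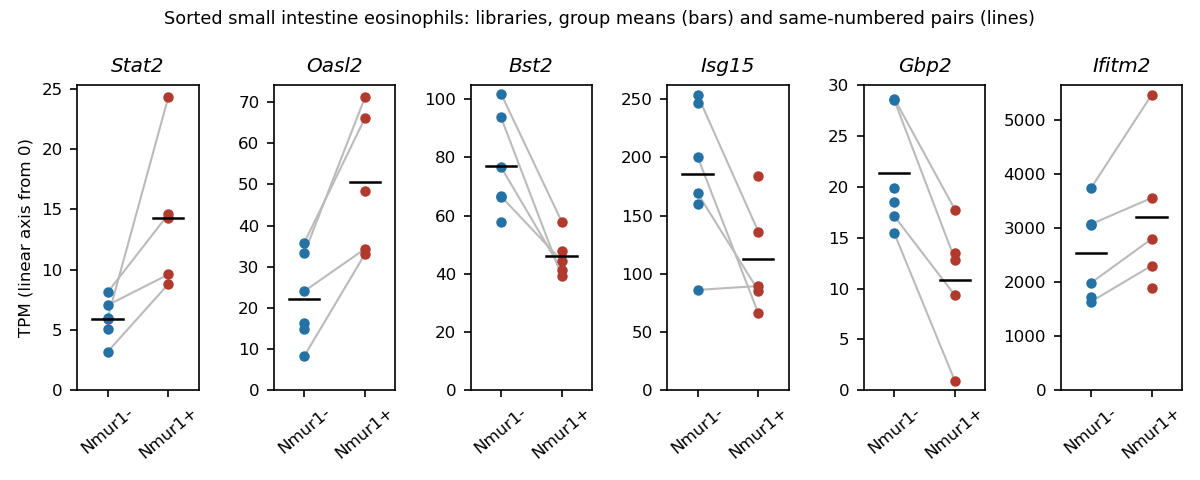
TPM on linear axes from 0 for 6 interferon-stimulated genes in 6 Nmur1-negative (blue) and 5 Nmur1-positive (red) libraries of small intestine eosinophils, with bars at the group means and grey lines joining the 4 same-numbered pairs. Bst2 and Gbp2 are lower and Stat2, Oasl2 and Ifitm2 higher in the positive library of all 4 pairs, while 1 of the 4 pairs goes the other way for Isg15.

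Beside these differences, the 6 measured of 18 monocyte and macrophage markers summed to 361 to 617 TPM in positive and 150 to 277 in negative libraries, and the dissociation genes to 12070 to 39210 and 11430 to 30090. Of the 31 dissociation genes measured, 9 were higher and 6 lower in positive cells (29% and 19.4%, against 9.18% and 5.25% of all genes). The part of either list in the differences between the sorted cells was not tested. Of the receptors, Ifnar1 (29.3 against 52.2 TPM, change −1.03, SE 0.22, adjusted p = 0.0188) and Ifngr2 (49.6 against 86.2 TPM, change −1.06, SE 0.26, adjusted p = 0.035) were lower in positive cells, and 0 of the 9 measured were higher. Of 59 further interferon-stimulated genes measured in the sort, 7 were higher and 5 lower (11.9% and 8.47%), near the 9.18% and 5.25% of all genes. Cxcl10 was among the lower, at 22.8 against 263 TPM (change −3.70, SE 0.23, adjusted p = 1.07e-07), and Gbp4 and Gbp8 among the higher (changes 1.97 and 1.55, adjusted p = 0.000187 and 0.00182), while their relative Gbp2 had the lower mean in positive cells.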

How the data were processed

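Smart-seq2 libraries of flow-sorted mouse eosinophils were analysed from 2 deposited tables of TPM. Per the submitters' processing notes, the authors used cutadapt 2.10, STAR 2.7.5c and RSEM 1.3.3 with build mm10 to make these TPM values. Of the annotation, the gene filter and the read totals nothing is stated in the sources used here. A single-cell sample was not analysed here. The members and gene lists were chosen with earlier results of these data known.

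TPM was transformed to log2(TPM + 1) and tested with limma 3.58.1 in R 4.3.3 (trended variance), modelling tissue or sort alone, on genes at 1 TPM or more in at least 3 tissue (9806 genes) or 5 sorted libraries (7982 genes). P-values were adjusted by Benjamini-Hochberg over all genes tested. A log2 change understates differences of low genes because of the pseudocount. The tables were never compared in level. Library values are given for the members with the 4 largest called changes per direction and comparison that reached a group mean of 10 TPM, and from each further list up to 4 called genes with the largest changes are named. Defining eosinophil and neutrophil markers, and members beyond this rule, were added after their values were seen. The script was tested on simulated data.

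Same-numbered libraries of the sort deviated together (4 pairs, correlations 0.164 to 0.225), so a block was fitted as an alternative. Differently numbered ones reached up to 0.194 (26 pairs), and the labels give the numbers no shared source. The 62 same-numbered pairs of different tissues did not (−0.045 to 0.088). Alternatives were pseudocounts of 0.1 and 5 TPM, no filter, median-ratio scaling, quantile normalization, robust variance, the block, and each library left out. Leaving out bone marrow was added after seeing the data. The values of 1 gene of the signalling pathway are not reported here.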

Additional observations from a re-analysis of the deposited data

Results flagged for a closer look

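In 159 sets of 4 to 6 libraries of the same group, 1 value per member was checked against the rest of its group. In 14 sets the highest or lowest library stood far from the others, by a criterion that chance would meet in about 1 of 20 sets of normally distributed values. That rate was not tested for TPM. A single value above 0 always meets the criterion when the rest of its set is 0, as for Ifit2. Small intestine replicate 4 stood apart in 3 members, low in Stat2 (5.85 TPM, the others 12.3 to 14.2) and high in Gbp7 (20.76 TPM, the others 6.35 to 7.77) and Igtp (32.66 TPM, the others 16.6 to 17.6). Spleen replicate 4 was high in Gbp2 (19.09 TPM, the others 4.65 to 4.74) and Ifit2 (0.95 TPM, the others 0) and low in Ifitm1 (7.61 TPM, the others 13.8 to 14.7). Spleen replicate 2 was low in Ifitm3 (18.32 TPM, the others 73.6 to 92.4). Small intestine replicate 2 was high in Xaf1 (34.57 TPM, the others 11.2 to 13.3) and Ifit2 (0.78 TPM, the others 0). Blood replicate 3 was high in Ddx58 (53.16 TPM, the others 28.3 to 31) and blood replicate 4 in Gbp7 (9.05 TPM, the others 7.44 to 7.47). Among sorted libraries, negative replicate 3 was high in Oas1a (26.31 TPM, the others 9.29 to 13.6), positive replicate 3 low in Ifi35 (43.31 TPM, the others 53.0 to 55.3) and positive replicate 5 low in Gbp2 (0.89 TPM, the others 9.33 to 17.8).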

How the results depend on the processing

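Of 84 calls of a member in a comparison, 38 held under every alternative run and 43 were lost without some single library. Median-ratio scaling gave 2 higher in bone marrow, 17 higher and 0 lower in lung, 6 lower in skin, 4 lower in small intestine, and 1 higher and 2 lower in the sort. Quantile normalization gave 0 lower in lung, 5 lower in skin, 7 higher and 4 lower in small intestine, and 1 higher and 2 lower in the sort. With a pseudocount of 0.1 TPM, 4 were higher in blood. The replicate block gave 2 higher in bone marrow, 4 lower in skin, 2 lower in small intestine and 3 lower in the sort. In the tissues, same-numbered libraries did not deviate together (correlations of −0.045 to 0.088) and the labels give the numbers no shared source, so the block is not read as a pairing there. Without the bone marrow libraries, an alternative chosen after seeing the data, 3 were higher in blood, 5 lower in skin, and 6 higher and 2 lower in small intestine. With single libraries left out, the counts ranged from 1 to 2 higher in bone marrow, 2 to 8 higher and 3 to 6 lower in blood, 2 to 6 lower in spleen, 0 to 4 lower in lung, 2 to 6 higher and 1 to 4 lower in skin, 3 to 8 lower in colon, 7 to 12 higher and 1 to 5 lower in small intestine, and 0 to 3 higher and 1 to 2 lower in the sort. The change of Irgm1 in lung relative to the median gene ranged from −1.86 to 0.12 when single libraries were left out. It reversed without lung replicate 2, which was at 0.64 TPM. The median gene itself stood at −0.57 in lung with all libraries. The difference before the median gene was subtracted, which the call tests, kept its direction. No other called change reversed relative to the median gene. The cause of these shifts was not tested. Depth is unknown, so no detection limit can be given for genes near 1 TPM such as Ifit2 and Gbp3.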
